A study of Mus musculus with 3 samples.

Results

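Gene deserts of chromosome X were taken as windows of 1 Mb that hold the start of no protein-coding gene and at least 100 listed single-base sites in the fibroblast library. Of the 156 windows with at least 100 such sites, 13 met this rule and the other 143 held at least 1 start. Chromatin bound by LSD1 (Kdm1a) was immunoprecipitated from 3 mouse samples, each a single library. MEF are mouse embryonic fibroblasts at day 0. LowK are day 20 fibroblasts with the vector SeVdp(fKOSMaB) and no Shield1. MidK carry the same vector and were given 30 nM Shield1, also to day 20. SeVdp is a persistent vector derived from Sendai virus that delivers reprogramming factors, and Shield1 is a small molecule that protects proteins carrying a destabilising domain from degradation. Both day 20 samples therefore carry the vector and differ from each other in Shield1, while MEF differ from both in the vector and in time. The labels give no sorting or cell mix for the day 20 samples, and reads were not set against an input library, which makes a read share coverage and not enrichment.

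LSD1 is a histone demethylase that works with CoREST and histone deacetylases, and it is known mainly from promoters and enhancers. Gene deserts are long stretches without protein-coding genes. In mammals they are often rich in A and T and in LINE elements, replicate late and lie at the nuclear lamina, and some hold distant enhancers of the genes that flank them. They therefore give a view of LSD1 reads far from gene starts, in all 3 cell states.

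Each window is named here by the protein-coding genes on either side of it, in mm10 coordinates. The first was H2al1n to Cypt1 (X:15000001-16000000), between a histone variant gene and a sperm-head gene. Next along the chromosome came Slc6a14 to Klhl13 (X:22000001-23000000), between an amino acid transporter gene and a ubiquitin ligase adaptor gene, and Cypt14 to Gria3 (X:40000001-41000000), next to a glutamate receptor gene. Then followed 4933402E13Rik to Gm6760 (X:63000001-64000000) and Gm52435 to Tmem47 (X:80000001-81000000), next to a gene for a cell-junction protein. The window X:87000001-88000000 lies wholly within Il1rapl1, a gene for a synaptic adhesion protein that starts 116 kb beyond it. Gm7429 to Cpxcr1 (X:115000001-116000000), Pcdh11x to Nap1l3 (X:121000001-122000000), which follows a protocadherin gene, and Cldn34c4 to Diaph2 (X:128000001-129000000) came next. Only 1 run of adjoining windows was found, the 3 windows from X:130000001 to 133000000 between Diaph2, a formin gene of the actin cytoskeleton, and Pcdh19, a protocadherin gene. The last was Ptchd1 to Phex (X:156000001-157000000), between a patched-related membrane protein gene and a gene of phosphate regulation.

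The deserts lay in stretches without a protein-coding start of 1381 to 3939 kb. The longest belongs to the Diaph2 to Pcdh19 run, whose middle window reached 1970 kb from the nearest start. The closest approach was in Gm7429 to Cpxcr1, where Gm7429 starts 18.6 kb outside the window. Gene bodies that start elsewhere covered all of the Il1rapl1 window and 465.8 kb of the first window of the run, where Diaph2 ends, and none of the other 11. Noncoding content was small: 55 pseudogenes, 3 transcribed pseudogenes, 5 snRNA genes, 5 snoRNA genes, 1 guide RNA gene and the end of 1 long noncoding gene, Gm15155. Another 4 windows without a coding start (the windows from X:1000001, X:2000001, X:125000001 and X:171000001) were left out for lack of sites, with 0, 0, 1 and 0 MEF sites. All 13 deserts lay far above the minimum of 100, from 2532 to 3319 MEF sites.

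The nearest coding promoters show what the lists record at the edges of these deserts. The following 3 are shown because each held at least 2 listed positions and was read in MEF and in a day 20 library. They were chosen after their values were seen, and 1 more flanking promoter that met this, of 4932411N23Rik at 1166 kb, is not shown. Each line gives the 250 bases before the start of the promoter that RefSeq (GRCm38.p6) gives the gene, 5′ to 3′ on the gene's strand. Capitals mark the listed positions. For Pcdh19 and Ptchd1 this start is not the gene start used for the deserts, which was X:133689044 and X:155624170. By that gene start, the Pcdh19 stretch reaches into the gene and the Ptchd1 stretch lies inside it.
Tmem47, chrX:81070394-81070643, plus strand: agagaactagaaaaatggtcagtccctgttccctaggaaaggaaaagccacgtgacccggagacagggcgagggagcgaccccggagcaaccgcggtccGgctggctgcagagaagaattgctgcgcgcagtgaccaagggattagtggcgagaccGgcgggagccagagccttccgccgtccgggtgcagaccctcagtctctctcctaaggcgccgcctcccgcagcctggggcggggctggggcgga
Pcdh19, chrX:133688994-133689243, minus strand: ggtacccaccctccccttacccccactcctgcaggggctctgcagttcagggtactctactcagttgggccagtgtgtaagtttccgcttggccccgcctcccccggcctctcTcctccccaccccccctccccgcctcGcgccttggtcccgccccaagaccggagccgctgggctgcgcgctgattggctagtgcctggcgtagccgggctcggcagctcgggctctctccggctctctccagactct
Ptchd1, chrX:155623328-155623577, minus strand: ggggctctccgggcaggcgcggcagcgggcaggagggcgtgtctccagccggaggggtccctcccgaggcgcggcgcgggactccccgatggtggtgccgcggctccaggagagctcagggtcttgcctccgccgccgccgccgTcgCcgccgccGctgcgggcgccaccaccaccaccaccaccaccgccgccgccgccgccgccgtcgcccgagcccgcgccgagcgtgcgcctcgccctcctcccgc
Counting from 1 at the 5′ end, Tmem47 had G100A with 0 B6 and 6 variant reads in MEF and 0 and 3 in LowK. At G157T, MEF had 1 and 4 and LowK 0 and 2. Pcdh19 had G140C with 0 B6 reads in both libraries, against 3 variant reads in MEF and 1 in LowK, and T114C with 0 and 2 in MEF alone. Ptchd1 had C148T with 2 variant reads in MEF and 1 in MidK, and T145C and G156A with 2 each in MEF alone. All 3 stretches were rich in G and C, at 65.6%, 69.2% and 81.6%, against a median of 50.4% over the 1223 promoters of chromosome X in the table. These promoters lie 70.6 kb, 689 kb and 376.7 kb outside the nearest desert and are not part of it. No desert held a promoter of that table.

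Reads were spread evenly over the deserts in MEF and less evenly at day 20. The 13 windows held 76176 MEF reads at 37665 sites, 22944 LowK reads at 15386 sites and 17889 MidK reads at 11386 sites. That was 8.63% of the MEF reads counted at listed single-base sites of the chromosome, 7.77% of the LowK reads and 8.80% of the MidK reads. The windows make up 8.33% of those analysed. A read over several listed sites counts at each of them. Reads per window ran from 5141 to 6603 in MEF with a coefficient of variation of 7.40%, from 1361 to 2165 in LowK (14.2%) and from 1036 to 1735 in MidK (13.6%). The other 143 windows varied more, with coefficients of 26.1%, 33.5% and 35.7%. They included sparsely listed windows, down to 128 MEF sites and 552 MEF reads, while every desert held at least 2532 MEF sites. Depth was low: a desert site had on average 2.02 MEF reads, 1.49 LowK reads or 1.57 MidK reads, beside 2.15, 1.58 and 1.69 elsewhere. A single read was all that 50.3% of MEF, 70.3% of LowK and 70.5% of MidK desert sites had.

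No pile-ups were listed in the deserts. The deepest desert site had 12 MEF reads, 12 LowK reads or 17 MidK reads, and 0 sites had over 20. The other windows held 47, 56 and 74 such sites among 373828, 171097 and 107398, up to 232, 219 and 237 reads. A typical other window had none either. The deepest site of a window had a median of 11, 9 and 11 reads there, beside 10, 7 and 10 in the deserts. The deepest site of both day 20 libraries, and the second deepest of MidK, lay 20 bp apart inside Il1rapl1. At X:87238412, MEF had 0 B6 and 5 variant reads, LowK 0 and 12 and MidK 1 and 16. At X:87238392, MEF had 1 and 4, LowK 2 and 7 and MidK 2 and 13. In MEF the deepest site was X:80391240 before Tmem47, with 2 B6 and 10 variant reads, where MidK had 0 and 1.

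To compare libraries, the reads of a window were divided by the median over the 156 windows of that library, so that 1 means a typical window. The H2al1n to Cypt1 window stood at 1.05 in MEF, 1.04 in LowK and 1.35 in MidK. Gm7429 to Cpxcr1 stood at 1.08, 1.19 and 1.29, and Cldn34c4 to Diaph2 at 0.980, 0.973 and 1.17. In these 3 windows MidK was the highest library. It was also the highest in Cypt14 to Gria3, Gm52435 to Tmem47, the middle window of the Diaph2 to Pcdh19 run and Ptchd1 to Phex. The Il1rapl1 window was the lowest of all deserts in both day 20 libraries, at 0.937 in MEF, 0.746 in LowK and 0.808 in MidK. The run from Diaph2 to Pcdh19 stood at 0.972, 0.769 and 0.936 in its first window, 1.03, 1.06 and 1.09 in its middle window and 1.14, 0.907 and 1.03 in its last. The middle window thus differed from both its neighbours in LowK. Pcdh11x to Nap1l3 was at 1.15 in MEF and LowK and 0.997 in MidK, and Slc6a14 to Klhl13 was at 1.02, 0.877 and 1.01. The remaining 4 windows lay between 0.821 and 1.19 in all 3 libraries.

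**Figure D1:**
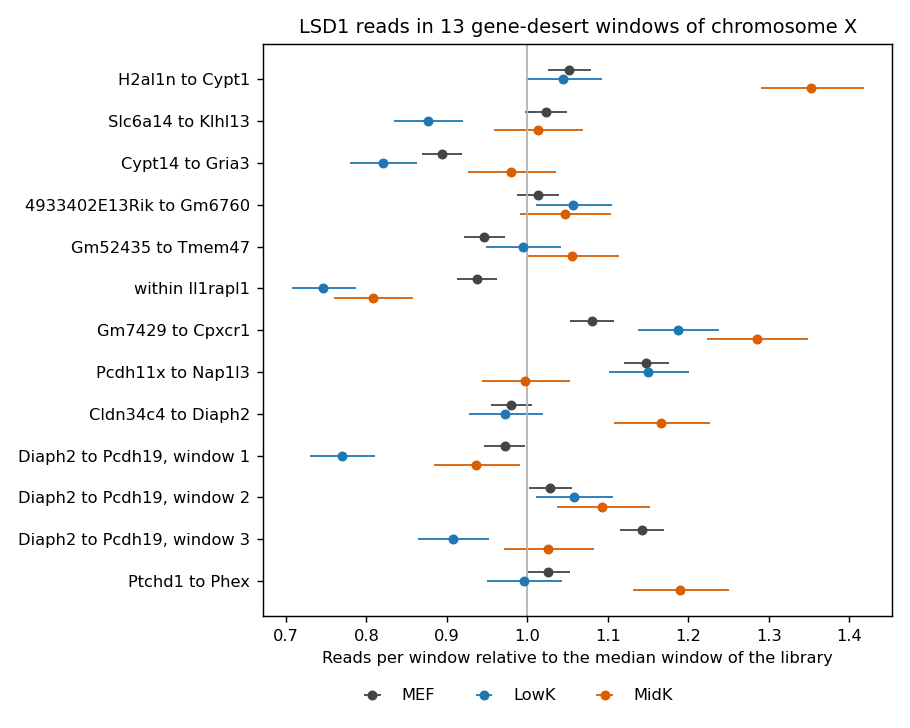
Reads in the 13 desert windows, each named by its flanking genes (vertical axis), divided by the median window of the same library (horizontal axis). Points are single libraries and bars are exact 95% Poisson intervals of the read count. LowK reaches down to 0.746 within Il1rapl1 and MidK up to 1.35 between H2al1n and Cypt1, while MEF stays between 0.894 and 1.15.

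The first comparison set LowK against MEF. No desert reached the call of at least 1.5-fold with exact 95% Poisson intervals apart: 0 of 13 were higher and 0 lower, against 4.49% of all 156 windows higher and 0% lower. The median log2 ratio over the deserts was -0.01, with a range from -0.34 to 0.14, beside 0.04 over the windows with a coding start. In the order of all 156 windows, 3 deserts stood 10th, 11th and 13th from the low end. They were the first window of the Diaph2 to Pcdh19 run, with a ratio of 0.792 (95% interval 0.746 to 0.839), its last window, with 0.794 (0.752 to 0.839), and the Il1rapl1 window, with 0.796 (0.750 to 0.845). The middle window of the run had 1.03 (0.976 to 1.08). Over the whole run LowK had 4987 reads and MEF 18077, a ratio of 0.870 (0.843 to 0.898). The highest desert was Gm7429 to Cpxcr1, at 1.10 (1.05 to 1.15), followed by Gm52435 to Tmem47 at 1.05 (0.996 to 1.11) and 4933402E13Rik to Gm6760 at 1.04 (0.990 to 1.10). Intervals cover counting error only and are too narrow, since 1 read can cover several listed sites. Differences between single libraries have no replicate check.

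The second comparison set MidK against MEF, and again 0 of 13 deserts were called, against 4.49% of all windows higher and 2.56% lower, 7.05% either way. The median log2 ratio was 0.09 (range -0.21 to 0.36), beside 0.03 over the other windows. H2al1n to Cypt1 had the highest ratio, 1.29 (1.22 to 1.36), at place 144 of 156. Cldn34c4 to Diaph2 and Gm7429 to Cpxcr1 followed at 1.19 each (1.12 to 1.26 and 1.13 to 1.26). The Il1rapl1 window was lowest at 0.862 (0.806 to 0.921), next to Pcdh11x to Nap1l3 at 0.869 (0.818 to 0.923) and the last window of the run at 0.898 (0.845 to 0.953). Il1rapl1 was therefore among the 3 lowest deserts against MEF in both day 20 libraries, which share the MEF library as their base.

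The last comparison was between the day 20 libraries, MidK over LowK, which are told apart by Shield1. Of all 156 windows 2.56% were called higher and 5.77% lower, 8.33% either way, and the deserts again gave 0 and 0. MidK was above LowK in 11 of 13 deserts, with a median log2 ratio of 0.18 (range -0.21 to 0.37), and in 74 of the 143 other windows, with a median of 0.01. The largest ratios were those of H2al1n to Cypt1, at 1.30 (1.21 to 1.38), the first window of the run, at 1.22 (1.13 to 1.32), and Cldn34c4 to Diaph2, at 1.20 (1.12 to 1.29). The exceptions were Pcdh11x to Nap1l3 at 0.867 (0.808 to 0.930) and 4933402E13Rik to Gm6760 at 0.990 (0.923 to 1.06), and the middle window of the run was at 1.03 (0.964 to 1.11). At sites listed in all 3 libraries, the desert median was -0.046 and the direction was thus the opposite; those sites gave only 338 to 438 reads per library in all 13 windows.

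The deserts lay close to other gene-poor windows and apart from gene-rich ones. For LowK over MEF, the median log2 ratio was -0.01 in the 13 deserts, -0.04 in 56 windows with 1 to 3 coding starts, 0.03 in 57 with 4 to 9 and 0.26 in 30 with 10 or more. For MidK over LowK it was 0.18, 0.18, -0.10 and -0.42, and for MidK over MEF 0.09, 0.12, -0.02 and -0.20. The medians of the deserts thus lay next to those of windows with 1 to 3 starts in each comparison. The number of starts correlated with the log2 ratio across the 156 windows, with a Spearman rho of 0.48 for LowK over MEF, -0.35 for MidK over MEF and -0.57 for MidK over LowK. These are descriptions without a test, and all windows of a comparison come from the same 2 libraries. Base composition moved with gene number: the share of MEF sites with A or T as the B6 base had a median of 52.2% in deserts, 51.3%, 49.9% and 48.9% in the classes of rising gene number. That share had a rho of -0.34, 0.44 and 0.56 with the same ratios over all windows. Over the 13 deserts alone the signs were the opposite, with a rho of 0.38, -0.077 and -0.47. Its part in the ratios was not tested.

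**Figure D2:**
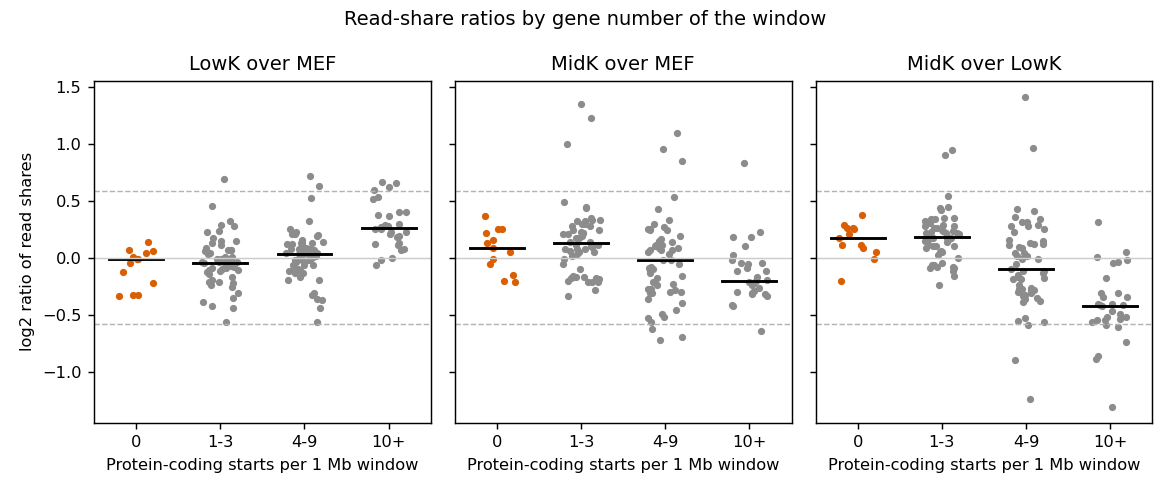
Log2 ratio of read shares (vertical axis) of each 1 Mb window in the 3 comparisons, grouped by the number of protein-coding starts in the window (horizontal axis). Each point is a window, orange points are the 13 deserts, black bars are medians and dashed lines mark 1.5-fold. All deserts lie between the dashed lines, with medians of -0.01, 0.09 and 0.18.

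With distance from the nearest protein-coding start, LowK over MEF went down and MidK over LowK went up over all windows, while MidK over MEF followed no steady course. Over all windows, LowK over MEF was 1.10 at sites under 100 kb from a start (95% interval 1.09 to 1.10), 1.002 at 100 to 500 kb (0.995 to 1.01), 0.936 at 500 kb to 1 Mb (0.921 to 0.951) and 0.912 over 1 Mb away (0.881 to 0.945). All 2264 kb of the last class lie in deserts. MidK over LowK was 0.897, 1.05, 1.12 and 1.13 in the same classes, with 0.891 to 0.904 in the first and 1.08 to 1.19 in the last. MidK over MEF was 0.984, 1.05, 1.05 and 1.04. Within the deserts alone, LowK over MEF was 0.972 at 100 to 500 kb, 0.947 at 500 kb to 1 Mb and 0.912 beyond, and MidK over LowK 1.05, 1.14 and 1.13. MidK over MEF was 1.02, 1.08 and 1.04 there. The intervals of the last 2 classes overlapped in all 3 comparisons. The 121 kb of desert under 100 kb from a start had 1.24 and 0.928, from 213 LowK reads. MEF reads per kb of desert were 5.78, 5.87 and 6.04 in the 3 farther classes.

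**Figure D3:**
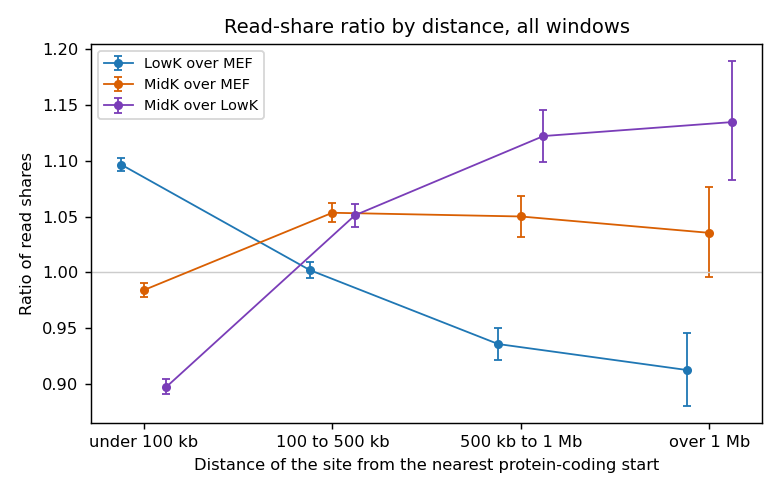
Ratio of read shares (vertical axis) for sites in 4 classes of distance from the nearest protein-coding start (horizontal axis), over all 156 windows. Points are ratios of single libraries and bars are exact 95% intervals. LowK over MEF goes from 1.10 to 0.912 and MidK over LowK from 0.897 to 1.13, while MidK over MEF stays between 0.984 and 1.05.

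Within the windows, read counts in 130 bins of 100 kb ran from 305 to 798 in MEF, 75 to 321 in LowK and 48 to 233 in MidK, with coefficients of variation of 16.6%, 26.7% and 27.6%. No bin was without a listed site in any library. The lowest LowK over MEF bin lay in the body of Diaph2, X:130100001-130200000, with 564 MEF reads, 78 LowK reads and 101 MidK reads, a ratio of 0.436 (0.340 to 0.554). The next bin, X:130200001-130300000, had 502, 89 and 53 reads and the second lowest MidK over MEF ratio, 0.474 (0.350 to 0.629). Low bins of both day 20 libraries thus lay side by side inside Diaph2, but the gene's bin X:130000001-130100000 had ratios over MEF of 1.02 and 1.37. The bin with the fewest reads in both day 20 libraries was X:22500001-22600000, between Slc6a14 and Klhl13 and outside coding gene bodies. It had 457, 75 and 48 reads, with ratios over MEF of 0.518 in LowK and 0.471 in MidK, the lowest for MidK. In the part of the first window of the run within Diaph2, reads per kb were 5.36 in MEF, 1.22 in LowK and 0.957 in MidK. Beyond the gene's end they were 5.79, 1.57 and 1.41. The highest MidK over MEF bin was the end of the Cldn34c4 to Diaph2 window, X:128900001-129000000, with 385, 178 and 192 reads and a ratio of 2.24 (1.87 to 2.67). The first bin of the same window, X:128000001-128100000, had 798, 237 and 86 reads and a MidK over LowK ratio of 0.516 (0.398 to 0.663). This window therefore held a low and a high end in MidK reads. Its first bin also had the most MEF reads of the 130 bins and its last the second fewest. In that last bin LowK over MEF was 1.46. Il1rapl1 filled its whole window with 5.39, 1.36 and 1.04 reads per kb.

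Some stretches held no listed site in any library. The longest spanned 14.7 kb before Tmem47 (X:80952750-80967493), and the other deserts had longest stretches of 7.14 to 10.9 kb. A missing site can mean no read or no difference from B6, which the lists do not tell apart. Gm15155, a long noncoding gene, reaches into the Ptchd1 to Phex window with 62.1 kb of its length. That stretch held 165 sites with 374 reads in MEF, 116 with 193 in LowK and 102 with 139 in MidK. Among the small RNA genes, Gm25207, an snRNA gene of 107 bp, had 5 variant reads at 5 sites in MidK and 0 sites in the other libraries. Sites this close can share a read, so these counts can come from fewer than 5 sequenced reads. Of the 55 pseudogenes, 48 held a listed site, with 345, 167 and 64 sites in MEF, LowK and MidK. Reads of pseudogenes and small RNA genes can come from another copy, so these values are uncertain.

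The alleles were read next. Listing requires a variant read, so variant reads dominate everywhere: B6 reads made up 12.5% of MEF, 8.21% of LowK and 15.6% of MidK desert reads, beside 14.3%, 9.74% and 18.5% in the other windows. The B6 share of LowK lay below that of MEF in 13 of 13 deserts, from 5.92% to 10.5% against 11.2% to 14.4%, and in 97.2% of the other windows. MidK lay above MEF in 11 of 13, and in 88.1% of the other windows. The deserts with less B6 in MidK than in MEF were Pcdh11x to Nap1l3 (11.6% against 11.8%) and the last window of the run (10.2% against 12.1%). The highest B6 share in MidK was that of Slc6a14 to Klhl13, at 20.1%, and MEF was also highest there, at 14.4%. These pooled shares depend on depth, since a site with 1 read can hold only a variant read. Such sites were 50.3% of MEF and 70.3% of LowK desert sites. At exactly 3 reads, variant reads alone were seen at 60.1% of MEF, 51.1% of LowK and 28.9% of MidK desert sites. At exactly 5 reads it was 27.2%, 17.2% and 6.57%. Sites without a B6 read were thus rarer in LowK than in MEF there and at 2, 4 and 6 reads, but not at 8 (4 LowK sites).

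A measure less bound to the listing keeps sites where both alleles have at least 2 reads, drops those over 20 reads, and thins the rest to 1 per 300 bp. Among those with at least 5 reads and no tie, it gives the share with more variant than B6 reads. It leaves out sites without a B6 read. For MidK the desert share was 23.0% of 226 sites (95% Clopper-Pearson interval 17.7% to 29.1%). For MEF it was 51.0% of 920 (47.7% to 54.3%), and for LowK 43.4% of 122 (34.5% to 52.7%). The B6 base thus had the majority at most such desert sites of MidK. The interval of MidK lay apart from those of MEF and LowK, and those of MEF and LowK overlapped. The other windows gave 48.2%, 45.2% and 23.2%, each inside the interval of the deserts. The low MidK value depended on the sites: of 30 desert sites that MEF also listed, 46.7% had a variant majority (28.3% to 65.7%), which overlaps the MEF interval. With a reliability score of at least 20, MidK was at 35.2% (26.2% to 45.0%), still apart from MEF at 61.7% (58.1% to 65.2%) and no longer apart from LowK at 55.3% (44.1% to 66.1%).

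Window by window, MidK lay below MEF in 13 of 13 deserts, and in 97.9% of the other windows with a value. With at least 10 sites in both libraries, 12 deserts could be compared and 2 were called lower by at least 10 points with intervals apart, 0 higher; over all windows tested, 19.3% were called lower and 0% higher. The called deserts were H2al1n to Cypt1, with 44.3% of 88 sites in MEF (33.7% to 55.3%) and 14.3% of 28 in MidK (4.03% to 32.7%), and Gm7429 to Cpxcr1, with 62.3% of 61 (49.0% to 74.4%) and 22.2% of 18 (6.41% to 47.6%). LowK gave 58.3% of 12 sites and 22.2% of 9 in these windows. With every site in place of 1 per 300 bp, 4 of 13 deserts were called lower, Gm7429 to Cpxcr1 again but not H2al1n to Cypt1. The share called over all windows was not counted with every site, so the 19.3% does not serve as its background. Across the 3-window run MidK had 14.6% of 41 sites (5.57% to 29.2%), MEF 48.0% of 223 (41.3% to 54.8%) and LowK 54.3% of 35 (36.6% to 71.2%), so MidK stood apart from both others there. The Il1rapl1 window had 33.3% of 12 MidK sites, 50.7% of 71 MEF sites and 14.3% of 7 LowK sites, with intervals that overlapped throughout. LowK against MEF called 0 of 7 deserts that had enough sites, against 1.11% of windows lower and 0% higher, and MidK against LowK 0 of 6, against 3.41% and 0%. By distance from a coding start, MidK had a variant majority at 22.7% of 66 desert sites at 100 to 500 kb (13.3% to 34.7%), 26.0% of 131 at 500 kb to 1 Mb (18.7% to 34.3%) and 7.41% of 27 beyond (0.910% to 24.3%). All 3 intervals overlapped.

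**Figure D4:**
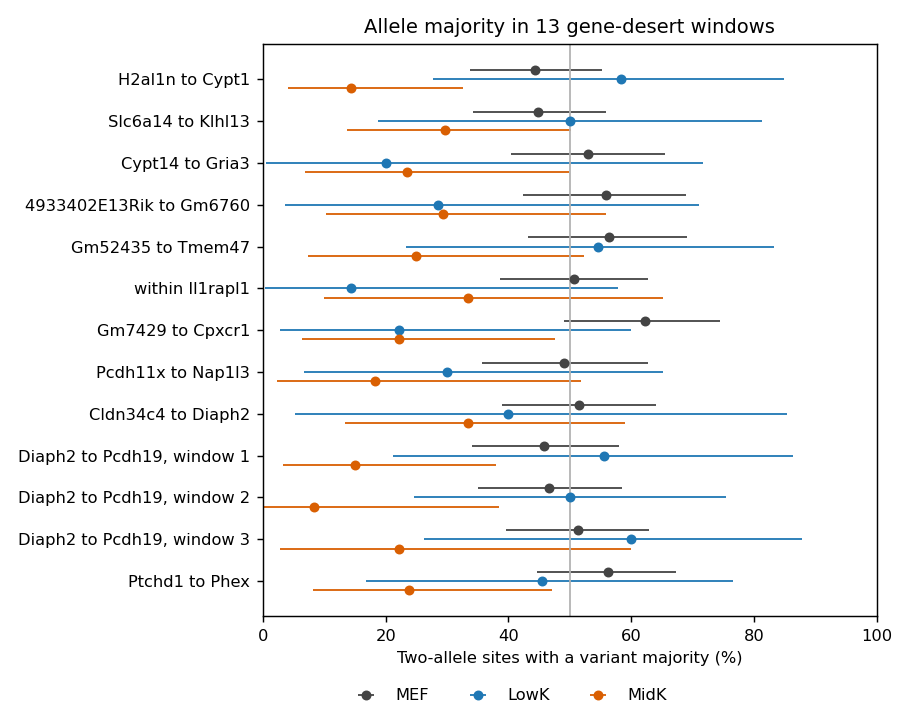
Percent of two-allele sites with more variant than B6 reads (horizontal axis) in the 13 desert windows (vertical axis). Points are single libraries and bars are exact 95% Clopper-Pearson intervals. MidK lies below MEF in 13 of 13 windows, from 8.33% to 33.3% against 44.3% to 62.3%, and the wide LowK bars rest on 5 to 16 sites.

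Sites with few reads show how the lists differ. At exactly 5 reads, the deserts held 353 MEF sites with variant reads only, 346 with a B6 majority and 601 with both alleles and a variant majority. LowK had 29, 56 and 84, and MidK 13, 121 and 64. Counting every desert site with at least 5 reads, no B6 read was seen at 22.5% of 2348 MEF sites, 15.0% of 294 LowK sites and 3.64% of 385 MidK sites, beside 21.8%, 13.7% and 2.67% in other windows. MidK therefore had the smallest share of such sites without B6, in deserts and elsewhere.

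The lists of the 3 libraries shared few positions, in the deserts as in the other windows. MEF and LowK had 2775 sites in common, 7.37% of the MEF list and 18.04% of the LowK list in deserts. MEF and MidK had 1777, or 4.72% and 15.6%, and LowK and MidK 884, or 5.75% and 7.76%. Shares in the other windows were 9.41% and 20.6%, 4.83% and 16.8%, and 6.09% and 9.71% in the same order. All 3 lists held 2808 sites in the other windows and 195 in the deserts, 10 to 17 per desert window. All 195 desert sites named the same variant base in each. At these sites B6 reads made up 17.1% of 438 MEF reads, 12% of 350 LowK reads and 13.6% of 338 MidK reads. In the Il1rapl1 window the 11 shared sites had 27 MEF reads, 47 LowK reads and 43 MidK reads, which turned its ratios to 2.23 (1.36 to 3.72) and 2.14 (1.29 to 3.60) over MEF. Without that pair of sites the ratios were 1.96 (1.02 to 3.85) and 0.884 (0.374 to 2.001). The shared sites and all listed sites thus gave opposite directions for LowK in this window.

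The single-base changes in the deserts had fewer transitions than those elsewhere. Transitions made up 58.9% of MEF, 59.1% of LowK and 56.5% of MidK desert sites, beside 62.1%, 62.1% and 60.04% in other windows. In MEF the widest gaps were in C-to-T changes, read on the strand with the pyrimidine, at 29.3% against 31.9%, and in T-to-A changes, at 11.0% against 9.27%. In MidK the gap in T-to-C changes, at 28.6% against 30.4%, was slightly wider than that in T-to-A changes, at 11.4% against 9.67%. The B6 base was A or T at 52.3% of MEF sites, 52.8% of LowK sites and 52.3% of MidK sites in deserts, beside 50.0%, 50.4% and 51.2%. The deserts were thus slightly richer in A and T at the listed positions in each library.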

How the data were processed

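LSD1 ChIP-seq reads of chromosome X were analysed in 3 libraries, 1 each for MEF, LowK and MidK, grouped by sample title. The submitters' processing notes name BWA and mm10, and the series' design text names bcftools mpileup; versions, filters, duplicate removal and the variant strain: not given in the sources used here. The deposited counts are the depth, B6 reads and variant reads at each listed position, per the file headers. The deposited reliability score, per the file headers, served in 1 alternative; in MidK its header carries another prefix than the other columns.

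Single-base sites were kept, 411952 with 883097 reads by allele in MEF, 186844 with 295254 in LowK and 119257 with 203350 in MidK. Genes came from RefSeq (GRCm38.p6, the build called mm10). Strand, from its promoter table, was known for 817 of 966 coding genes and gave their start; for the other 149 the lower coordinate was used, and in distances both ends. The B6 base matched that table at all 1028 MEF, 899 LowK and 333 MidK sites within its promoters. No genome was used, so no desert sequence is printed.

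With 1 library per group, no p-value was computed. Windows were called by size (at least 1.5-fold, at least 30 reads in 1 library and Poisson intervals apart; at least 10 points, 10 sites and Clopper-Pearson intervals apart). Windows named were every run and the 3 highest and lowest per comparison and in MEF reads per site; the other deserts, the bins and the deepest sites were named after their values were seen. The members, measures and lists were chosen with earlier results of these data known. The calls were tested on simulated independent counts, which leave out reads that cover several sites. That test therefore does not show how the calls behave with such reads. Python 3.11.15, numpy 2.4.6, pandas 2.3.3 and scipy 1.17.1 were used.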

Additional observations from a re-analysis of the deposited data

Results flagged for a closer look

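Entries other than single-base sites were not part of the comparisons, and they were listed in every desert. There were 2373 in MEF, 772 in LowK and 570 in MidK, which is 5.93%, 4.78% and 4.77% of all desert entries, beside 7.08%, 6.25% and 5.66% in the other windows. Gains and losses of bases were nearly balanced, at 1131 and 1242 in MEF, 386 and 386 in LowK and 266 and 304 in MidK, and 44.2%, 46.0% and 47.9% changed the length by 1 base. Of the distinct entries, 3302 were listed in 1 library, 196 in 2 and 7 in all 3.

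The following 4 are the entries with the longest alleles among those listed in at least 2 libraries, shown with the B6 allele first and the bases gained or lost in capitals.
X:130727022-130727036, B6 allele: cttctttctttcttt
X:130727022-130727036, variant allele: cttctttctttctttCTTT
X:87974343-87974358, B6 allele: tacacacacacacaca
X:87974343-87974358, variant allele: tacacacacacacacaCA
X:121392438-121392455, B6 allele: caacaccagaACACCAGA
X:121392438-121392455, variant allele: caacaccaga
X:80760055-80760068, B6 allele: agcatctgCATCTG
X:80760055-80760068, variant allele: agcatctg
The first lies beyond the end of Diaph2 and had 1 B6 and 1 variant read in MEF and 0 and 1 in MidK. The second lies within Il1rapl1 and had 0 and 3 in MEF and 1 and 1 in MidK. The third, next to Pcdh11x, had 2 and 1 in MEF and 3 and 1 in LowK, and the fourth, before Tmem47, had 0 and 2 in MEF and 1 and 1 in LowK.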

How the results depend on the processing

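No paired analysis was possible because each group has 1 library, and no library could be left out. At sites listed in all 3 libraries, the count of 0 deserts called in read share became 1 higher for LowK over MEF, of 11 tested. For MidK over MEF it became 1 higher, of 10 tested there (Il1rapl1 both times). For MidK over LowK the count became 1 higher, of 13 tested, with a reliability of at least 20 (the first window of the Diaph2 to Pcdh19 run, 1.53-fold). With windows shifted by 500 kb it became 1 higher, of 15 tested (X:125500001-126500000, 1.62-fold). That shifted window is not one of the 13 deserts. Its first part lies in X:125000001-126000000, which had 1 MEF site. The median log2 ratio of MidK over LowK moved from 0.18 to -0.046 at sites listed in all 3 libraries. In allele share, the 2 of 12 deserts called lower in MidK against MEF became 1 of 4 with at least 20 sites. They became 4 of 13 with every site and 1 of 4 with a reliability of at least 20. For MidK against LowK, 0 of 6 became 1 of 10 lower with every site. Under none of these settings was the share called over all windows counted, for read share or allele share. The cause of these changes was not tested.

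The percent of reads in deserts was, for MEF, LowK and MidK, 8.82, 8.08 and 9.31 when thinned sites (1 per 300 bp) each counted as 1 read, 8.79, 7.95 and 9.34 without the deepest 1% of sites, 3.51, 4.18 and 3.33 at sites listed in all 3 libraries, 8.45, 7.15 and 8.35 with a reliability of at least 20, 9.47, 8.57 and 9.86 with shifted windows (15 deserts) and 9.89, 8.96 and 10.2 with the gene start as the lower coordinate; 1 site per 300 bp with all its reads gave 8.39 in MEF. The last reading, added after seeing the data, also admits X:88000001-89000000 and X:158000001-159000000, where Il1rapl1 and Cnksr2 start. The variant-majority share was 61.7% (MEF), 55.3% (LowK) and 35.2% (MidK) with a reliability of at least 20, 33.3% of 15 sites in LowK and 30% of 30 in MidK with at least 3 reads of each allele, 46.7% in MidK at sites that MEF listed and 47.5% in MEF with shifted windows. The fits with at least 20 sites for LowK over MEF and MidK over LowK, and with a reliability of at least 20 for MidK over LowK, had no desert to compare.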
